A study of Mus musculus with 3 samples.

Results

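The mitochondrial transcript share is the part of the UMIs (unique molecular identifiers, each marking 1 captured transcript) of a tissue spot that came from mitochondrially encoded genes, as a percent of all UMIs of that spot. It was read for every spot of the deposited spatial tables, 2758 of 2758 spots, of which 859 lay in the 2 dpi section, 933 in the 5 dpi section and 966 in the 7 dpi section (dpi, days post injury). The sections came from the tibialis anterior muscle of female C57BL6/J mice aged 5 months, injured by injection of notexin, a snake venom toxin that kills myofibers and leaves the muscle stem cells (MuSCs) able to rebuild them. Each time point was 1 section from its own capture area, all 3 were injured, and no uninjured section was among those analysed. Animal, capture area and time point therefore cannot be told apart, and no test between time points was made. The sources used here do not state which genes were summed for the share. Each spot is a small region that can hold several cells or parts of cells.

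The mitochondrial genome is a small circle present in many copies per cell. It encodes core subunits of the respiratory chain and of the ATP synthase, together with the ribosomal and transfer RNAs needed to translate them inside the organelle, and the other proteins of the organelle come from nuclear genes. In the GENCODE annotation (release M21, GRCm38) the mouse mitochondrial chromosome carries 37 genes. Of these, 13 are protein-coding, with 7 subunits of complex I (the Nd genes), 3 of cytochrome c oxidase (the Co genes), 2 of the ATP synthase (the Atp genes) and cytochrome b (Cytb), and 2 encode ribosomal RNAs and 22 transfer RNAs. Mitochondrial messengers are polyadenylated, so the oligo-dT probes of the array capture them. Muscle fibers differ in mitochondrial content. In mouse fast muscle, type IIx fibers are more oxidative than the glycolytic type IIb fibers, and immune cells and fibro-adipogenic progenitors (FAPs, the connective tissue progenitors of muscle) hold no contractile apparatus.

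The share varied widely within every section and was lowest in its median at 7 dpi. At 2 dpi its median over spots was 29.0% (quartiles 15.1% and 35.9%, lowest spot 4.13%, highest 72.2%). At 5 dpi the median was 23.7% (quartiles 12.6% and 32.5%, lowest 3.92%, highest 47.6%), and at 7 dpi it was 16.9% (quartiles 12.0% and 26.6%, lowest 2.77%, highest 56.2%). The quartile ranges of the 3 sections overlapped. Counting error was small against this spread, with a median binomial SD of a single spot of 0.552, 0.399 and 0.328 percentage points at 2, 5 and 7 dpi, against SDs over spots of 12.0, 10.9 and 9.03 points.

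Spots with at least 30% mitochondrial UMIs were 404 of 859 at 2 dpi (47.0%, exact Clopper-Pearson 95% interval 43.7% to 50.4%), 321 of 933 at 5 dpi (34.4%, 31.4% to 37.6%) and 147 of 966 at 7 dpi (15.2%, 13.0% to 17.6%). The intervals cover the counting of spots only, not the spread between animals. At 2 and 5 dpi fewer spots lay between 20% and 30% than in the range of equal width on either side. Whether the spots form separate groups was not tested. The 2 dpi section held 259 spots between 10% and 20%, only 138 between 20% and 30%, and 294 between 30% and 40%, and the same ranges held 275, 209 and 285 spots at 5 dpi. At 7 dpi the counts fell from 458 to 239 to 132 over these ranges.

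**Figure D1:**
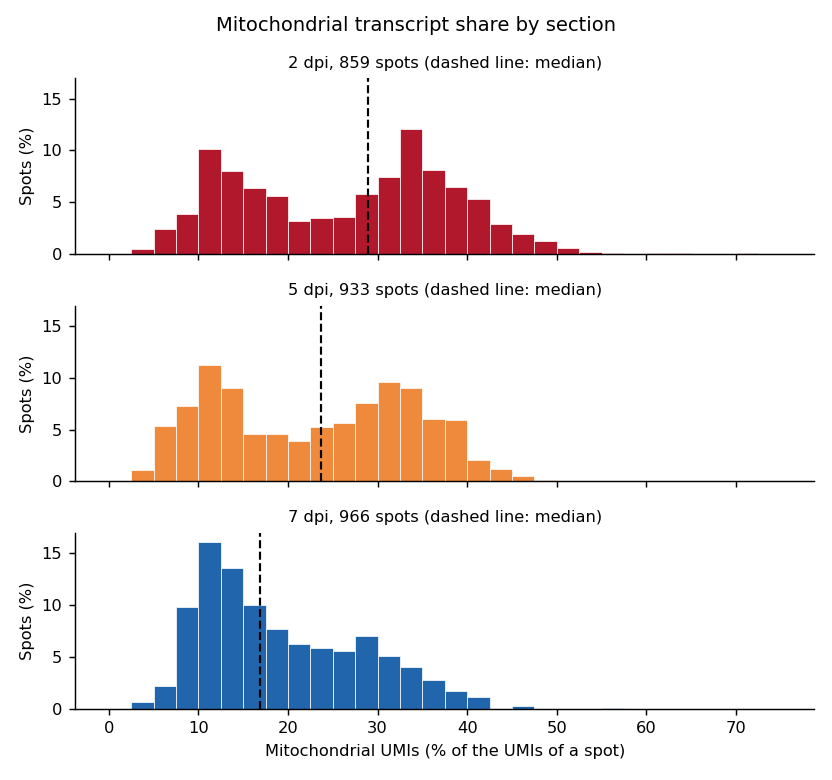
Distribution of the mitochondrial share (x axis, percent of the UMIs of a spot) as the percent of spots in each section (y axis), in classes of equal width. In the 2 and 5 dpi sections fewer spots lie between 20% and 30% than between 10% and 20% or between 30% and 40%. The dashed medians lie at 29.0%, 23.7% and 16.9% at 2, 5 and 7 dpi.

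The lower percent at 7 dpi stood beside more mitochondrial UMIs per spot, not fewer. Across the 2, 5 and 7 dpi sections the median of mitochondrial UMIs per spot was 1371, 2100 and 2603.5, and that of other UMIs 4249, 8214 and 11818.5. From 2 to 7 dpi the median of mitochondrial UMIs was 1.90-fold higher and that of other UMIs 2.78-fold higher, while the median share was 0.584 of its 2 dpi value. The sections were captured to different depth, with medians of 5786, 11221 and 15135 UMIs per spot, so UMIs per spot are not on a common scale between sections. More mitochondrial transcripts, fewer other transcripts and a different mix of cells in a spot cannot be told apart in a percent.

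The mitochondrial share followed the myofiber content of a spot in all 3 sections. Myofiber content was taken as the summed theta of type IIb and type IIx myonuclei, theta being the part of the transcripts in a spot, from 0 to 1, which the deconvolution program BayesPrism gave to a cell type. The run described in the methods left mitochondrial and ribosomal protein genes out of its markers, in which case the share and theta have no mitochondrial reads in common. It is not known whether the deposited thetas came from that run, since its reference had fewer types. Both measures come from the library of the same spot. Spearman's rho between the share and the summed myonuclei theta was 0.82, 0.83 and 0.86 over the 859, 933 and 966 spots of the 2, 5 and 7 dpi sections. Given the UMI count (partial rank correlation) it was 0.79, 0.83 and 0.86. Spots of 1 section share a library and a tissue and are not replicates, so every correlation here is a description.

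At 2 dpi the median share rose from 7.66% in the 50 spots with a summed myonuclei theta under 0.25 to 12.4% in 180 spots from 0.25 to 0.5, 19.9% in 205 spots from 0.5 to 0.75, and 35.0% in the 424 spots of 0.75 or more, here named myofiber-rich. At 5 dpi the medians of these bins were 5.83% (32 spots), 9.33% (123 spots), 13.8% (266 spots) and 31.6% (512 spots). At 7 dpi they were 6.64% (34 spots), 10.2% (199 spots), 14.8% (325 spots) and 27.5% (408 spots). The order of the bins was the same in every section. Myofiber-rich spots stood 4.56-fold above the lowest bin at 2 dpi, 5.43-fold at 5 dpi and 4.14-fold at 7 dpi.

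Both parts of the percentage differed between the ends of this axis. Between the lowest and the myofiber-rich bin, median mitochondrial UMIs per spot were 4.19-fold higher at 2 dpi (632 against 2647.5), 3.18-fold higher at 5 dpi (1042.5 against 3315) and 5.12-fold higher at 7 dpi (701.5 against 3591.5). The other UMIs were lower in the myofiber-rich bin, at 0.684, 0.419 and 0.792 of the lowest bin. At 2 dpi they were not lower than in the middle bins, with medians of 3189.5 and 3200 there against 4771 in myofiber-rich spots. Over all spots, the rho of other UMIs with the summed myonuclei theta was 0.19, -0.24 and -0.19 at 2, 5 and 7 dpi.

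**Figure D2:**
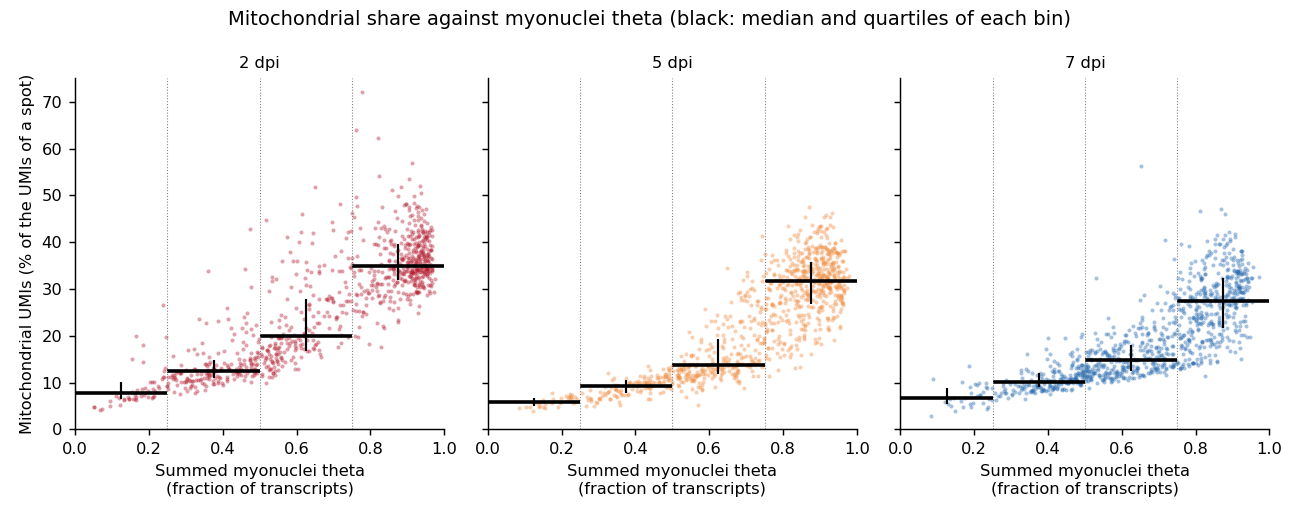
Mitochondrial share (y axis, percent of the UMIs of a spot) against the summed theta of both myonuclei types (x axis, fraction of transcripts), 1 point per spot and 1 panel per section; black horizontal lines are bin medians, black vertical lines the quartiles and dotted lines the bin edges. The bin medians rise in each panel, from 7.66% to 35.0%, 5.83% to 31.6% and 6.64% to 27.5% (2, 5 and 7 dpi in turn).

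Comparing sections within bins of myofiber content narrowed the difference of 7 dpi from both other sections, against ratios of 0.712 (7 to 5 dpi) and 0.584 (7 to 2 dpi) over all spots, while that of 5 to 2 dpi, 0.820 over all spots, was wider in the 3 lower bins. The 2 dpi section had the highest median in all 4 bins. The ratio of 5 to 2 dpi was 0.761, 0.751, 0.695 and 0.905 from the lowest to the highest bin, and that of 7 to 2 dpi was 0.867, 0.819, 0.746 and 0.787. From 5 to 7 dpi the median was slightly higher in the 3 lower bins (ratios 1.14, 1.09 and 1.07) and lower only in myofiber-rich spots (0.870). That order of 5 and 7 dpi in the lower bins was not kept in spots with 5000 to 10000 UMIs, where the ratio was 0.993 from 0.25 to 0.5 and 0.956 from 0.5 to 0.75. It was kept in both of these bins in deeper spots. With 10000 to 20000 UMIs the medians at 5 and 7 dpi were 9.06% and 9.60% from 0.25 to 0.5, and 13.7% and 14.1% from 0.5 to 0.75. With 20000 or more UMIs they were 8.03% and 10.4%, and 13.7% and 15.0%. Over all depths, the ratio of 7 to 5 dpi from 0.5 to 0.75 was also under 1 by means (0.992) and by summed UMIs (0.984). The same held with bin edges moved up by 0.05 (0.956) and with type IIb theta alone (0.700). With type IIb theta alone the ratio was 0.957 from 0.25 to 0.5. Quartile ranges overlapped in 11 of the 12 comparisons, the exception being the bin from 0.25 to 0.5 between 5 dpi (7.82% to 10.5%) and 2 dpi (10.9% to 14.8%). Averaged with equal weight of the 4 bins, the medians came to 18.7%, 15.2% and 14.8% at 2, 5 and 7 dpi, so that 5 and 7 dpi lay close together where the plain medians were 23.7% and 16.9%.

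The sections still differed in content within the top bin, where the median summed theta was 0.912, 0.883 and 0.856 for 2, 5 and 7 dpi, respectively. In spots of 0.9 or more, the median share was 36.1% in 248 spots at 2 dpi, 32.6% in 205 spots at 5 dpi and 30.3% in 116 spots at 7 dpi. The ratio of 7 to 2 dpi was 0.839 there, and the order of the sections was kept. Depth also differed between the sections. In myofiber-rich spots with 5000 to 10000 UMIs the medians were 35.0% (171 spots), 30.1% (143 spots) and 29.6% (71 spots), which left little between 5 and 7 dpi. That was not so with 10000 to 20000 UMIs, where they were 36.0% (127 spots), 33.0% (276 spots) and 26.6% (259 spots). With 20000 or more UMIs, 5 and 7 dpi had 31.0% (25 spots) and 29.9% (63 spots).

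Among myofiber-rich spots, those with more type IIx signal had a higher mitochondrial share. The measure was the type IIx part of the summed myonuclei theta, and its rho with the share was 0.46, 0.57 and 0.72 over the 424, 512 and 408 such spots of the 3 sections. At 2 dpi the median share was 33.8% in 255 spots with a type IIx part under 0.05, 37.0% in 120 spots from 0.05 to 0.2 and 42.8% in 49 spots of 0.2 or more. At 5 dpi the 3 classes had 26.9% (184 spots), 31.5% (120 spots) and 34.6% (208 spots), and at 7 dpi 20.1% (151 spots), 29.2% (130 spots) and 32.4% (127 spots). The highest class exceeded the lowest by 9.05, 7.69 and 12.3 points. At 2 dpi its quartile range (37.8% to 47.6%) did not overlap that of the lowest class (31.0% to 36.6%), and at 7 dpi the ranges were also separate (28.1% to 36.7% against 17.3% to 24.6%). At 5 dpi the lower quartile of the highest class, 31.35%, lay at the upper quartile of the lowest, 31.34%.

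Median mitochondrial UMIs per spot were 1.97-fold, 2.48-fold and 2.02-fold higher in the highest type IIx class than in the lowest at 2, 5 and 7 dpi. Other UMIs were 1.36-fold, 1.60-fold and 1.07-fold higher. At 5 dpi depth moved with the type IIx part (rho of the UMI count with the type IIx part 0.49, against 0.005 at 2 dpi and 0.16 at 7 dpi). Given the UMI count, the rho of the share with the type IIx part was 0.46, 0.51 and 0.72, and in spots with 5000 to 10000 UMIs it was 0.49, 0.37 and 0.54. The part of depth in the 5 dpi value beyond these measures was not tested.

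**Figure D3:**
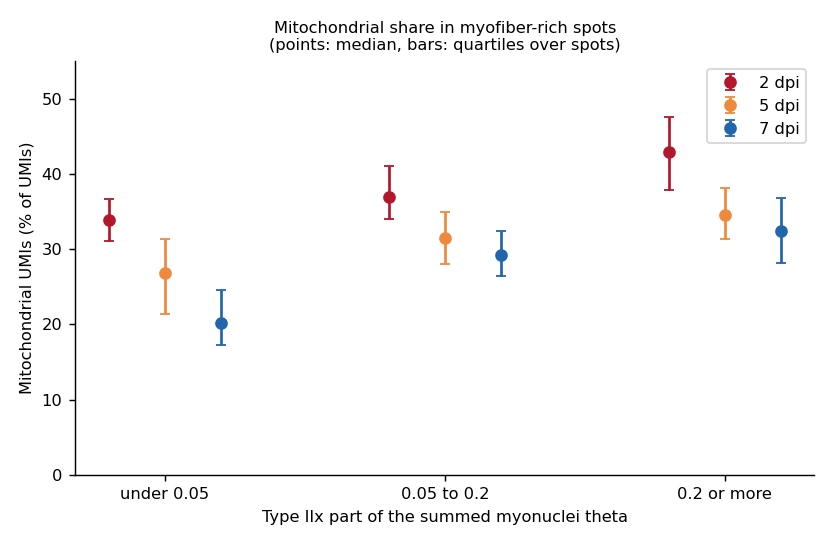
Mitochondrial share (y axis, percent of UMIs) in spots with a summed myonuclei theta of 0.75 or more, by the type IIx part of that theta (x axis); points are medians and bars reach from the lower to the upper quartile over spots. Medians rise with the type IIx part in each section, from 33.8% to 42.8%, 26.9% to 34.6% and 20.1% to 32.4% across the 2, 5 and 7 dpi sections.

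The difference between sections also varied with the type IIx part. The ratio of 7 to 2 dpi was 0.596 in spots with a type IIx part under 0.05, 0.791 from 0.05 to 0.2 and 0.757 at 0.2 or more. That of 5 to 2 dpi was 0.795, 0.852 and 0.806 in these classes, each under the 0.905 of all myofiber-rich spots. The highest class held 49 of the 424 myofiber-rich spots at 2 dpi and 208 of 512 at 5 dpi. In the lowest class the median summed theta was 0.914 at 2 dpi and 0.840 at 7 dpi, so myofiber content was not equal between those sections. Over all spots, the theta of type IIb myonuclei, the larger of the pair, had a rho with the share of 0.66, 0.45 and 0.55, and that of type IIx 0.38, 0.62 and 0.59. Given the summed theta these became -0.43, -0.58 and -0.57 for type IIb and 0.50, 0.72 and 0.67 for type IIx. At a fixed sum more of the one type is less of the other, so the opposite signs of these values are fixed by the measure and are a single observation.

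The thetas of the 25 other cell types ran mostly against the mitochondrial share. At 2 dpi all 25 had a rho of -0.1 or lower, from -0.79 to -0.23. At 5 dpi 18 of 25 did and 1 was at 0.1 or above (range -0.78 to 0.26), and at 7 dpi 15 of 25 did and 4 were at 0.1 or above (range -0.80 to 0.21). The 27 thetas of a spot sum to 1, so where the myonuclei are higher the sum of all other types is lower by construction. After removing the summed myonuclei theta by partial rank correlation, 14 of 25 types at 2 dpi, 16 at 5 dpi and 12 at 7 dpi lay within 0.1 of 0, and 8 in each section were at 0.1 or above.

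The 7 types of monocytes, macrophages and dendritic cells, which clear dead fibers after injury, had negative rho in all 3 sections. Patrolling monocytes had a rho of -0.79, -0.59 and -0.52 (2, 5 and 7 dpi in turn), and Cxcl10+ monocytes -0.75, -0.69 and -0.63. The thetas were low at 5 and 7 dpi. Patrolling monocytes had means of 0.0780, 0.0059 and 0.0064, and Cxcl10+ monocytes 0.0175, 0.0071 and 0.0066. M2 macrophages of the Cx3cr1-hi class had -0.66, -0.78 and -0.80, and those of the Cx3cr1-lo class -0.67, -0.67 and -0.61. Inflammatory monocytes, M1 macrophages and dendritic cells ranged from -0.73 to -0.36 over the sections. Given the summed myonuclei theta, 3 values in this group stood furthest from 0, namely Cx3cr1-hi M2 macrophages at 7 dpi (-0.33), patrolling monocytes at 2 dpi (-0.27) and Cx3cr1-lo M2 macrophages at 7 dpi (-0.21).

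B cells, T cells, NK cells and neutrophils had rho from -0.70 to -0.59, -0.54 to -0.40 and -0.51 to -0.28 for 2, 5 and 7 dpi, respectively. All 4 lay within 0.1 of 0 in every section once the summed myonuclei theta was given. Their mean theta was under 0.01 throughout. Among the FAPs, the pro-remodeling class, which deposits matrix, had -0.58, -0.63 and -0.60, against -0.61, -0.17 and -0.03 for the stem class and -0.40, -0.34 and -0.12 for the adipogenic class. The adipogenic class at 7 dpi moved to -0.25 given the summed myonuclei theta, and the pro-remodeling class stayed within 0.1 of 0.

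Of the 4 stages of the myogenic lineage, fusing myocytes, the differentiated cells that join into new fibers, had the strongest negative rho at 5 and 7 dpi, -0.78 and -0.73, after -0.49 at 2 dpi. Given the summed myonuclei theta, the value for fusing myocytes was 0.30, -0.04 and -0.10 across the 2, 5 and 7 dpi sections. Quiescent MuSCs had -0.51, 0.05 and 0.10, activated MuSCs -0.65, -0.29 and -0.09, and committed myoblasts -0.62, -0.05 and 0.14. In plain rho these 3 stages thus went from clearly negative at 2 dpi to near 0 or slightly positive at 7 dpi. Given the summed myonuclei theta, quiescent MuSCs had 0.13, 0.25 and 0.23, and activated MuSCs -0.07, 0.08 and 0.06. Committed myoblasts had -0.01, 0.22 and 0.10, so none of these 3 stages was then clearly negative at 2 dpi. The mean theta of these 3 stages was at most 0.0121 in any section, and the difference between sections was not tested.

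At a given summed myonuclei theta, all 4 endothelial types (artery, capillary, stem and vein) had a positive rho in each section, from 0.10 to 0.19, 0.25 to 0.37 and 0.17 to 0.37 (2, 5 and 7 dpi in turn). Without that step they ranged from -0.59 to -0.24, -0.12 to 0.26 and -0.06 to 0.21. Their thetas were low, with means under 0.01, and in spots with 5000 to 10000 UMIs the plain rho ranged from -0.50 to -0.17, -0.16 to 0.11 and -0.28 to -0.01. Neural cells, smooth muscle and tenocytes were also positive at a given summed myonuclei theta, from 0.04 to 0.29 over the sections.

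**Figure D4:**
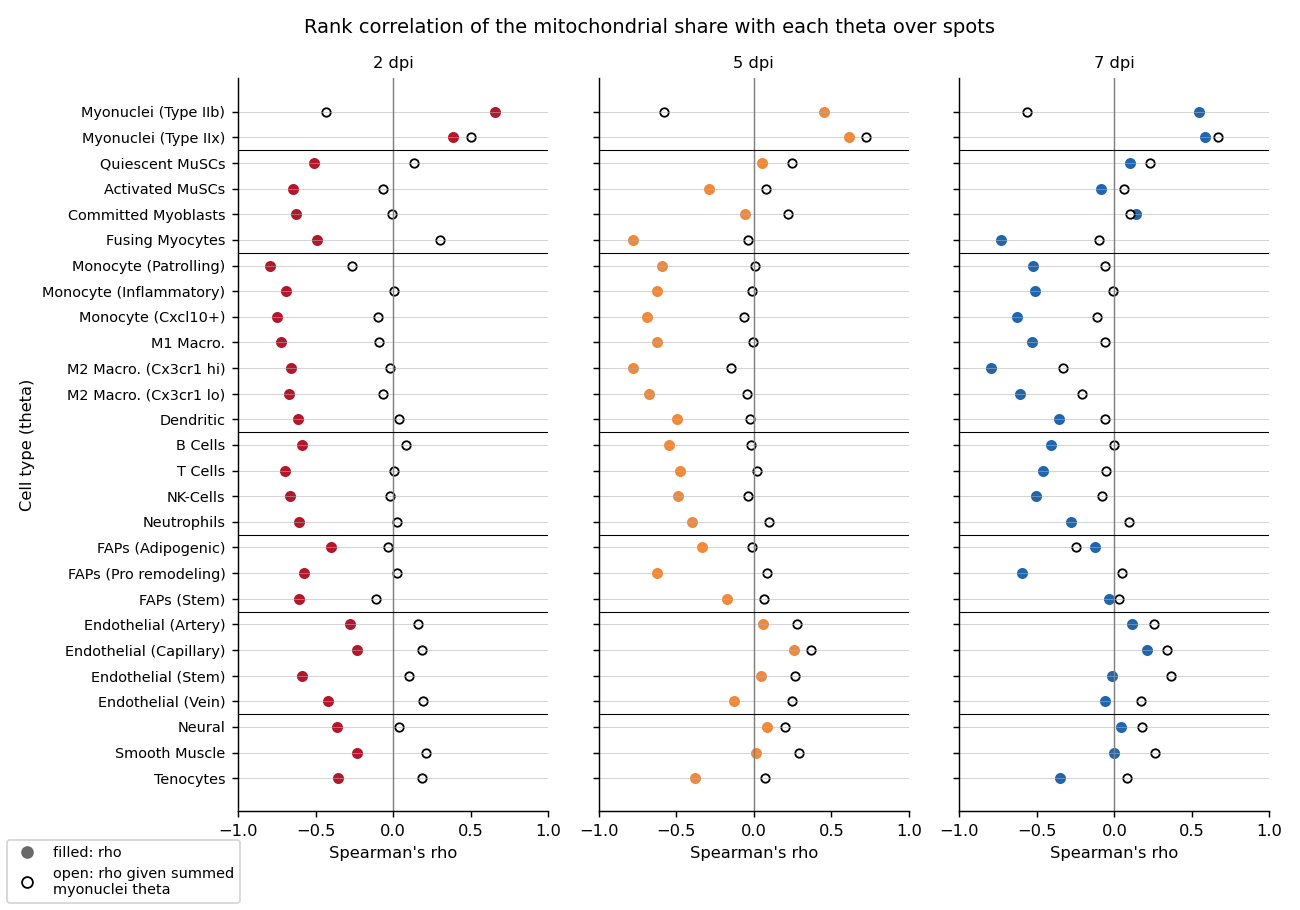
Spearman's rho of the mitochondrial share with the theta of each of 27 cell types (y axis, grouped by lines) over the spots of a section, filled points, and the same given the summed myonuclei theta, open points. Both myonuclei types lie right of 0, the immune types left of 0, and 14, 16 and 12 of the 25 open points below the myonuclei lie within 0.1 of 0, while type IIb moves to -0.43, -0.58 and -0.57.

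Of all the measures correlated with the mitochondrial share, the largest rho in size was that of the share of UMIs from ribosomal protein genes, which encode the protein part of the cytoplasmic ribosome. The rank correlation was -0.88, -0.92 and -0.90 for 2, 5 and 7 dpi, respectively. The median ribosomal protein share was 5.85%, 6.42% and 7.87%, and the median spot held 5.06, 3.78 and 2.15 mitochondrial UMIs per ribosomal protein UMI. Both shares have the same denominator, so a spot with a larger mitochondrial share has less room for any other class. As a percent of non-mitochondrial UMIs, the ribosomal protein share had a rho with the mitochondrial share of -0.72, -0.80 and -0.82. The ribosomal protein share also followed myofiber content, with a rho of -0.87, -0.91 and -0.88 with the summed myonuclei theta. With both the denominator changed and the summed myonuclei theta given, rho was -0.15, -0.21 and -0.30.

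In myofiber-rich spots alone the relation with the ribosomal protein share of non-mitochondrial UMIs was -0.31, -0.32 and -0.53 across the 2, 5 and 7 dpi sections. In the spots with a summed theta under 0.25 it was 0.08 in 50 spots at 2 dpi, -0.56 in 32 spots at 5 dpi and -0.58 in 34 spots at 7 dpi. The 2 dpi value in these myofiber-poor spots was near 0, unlike the other two.

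**Figure D5:**
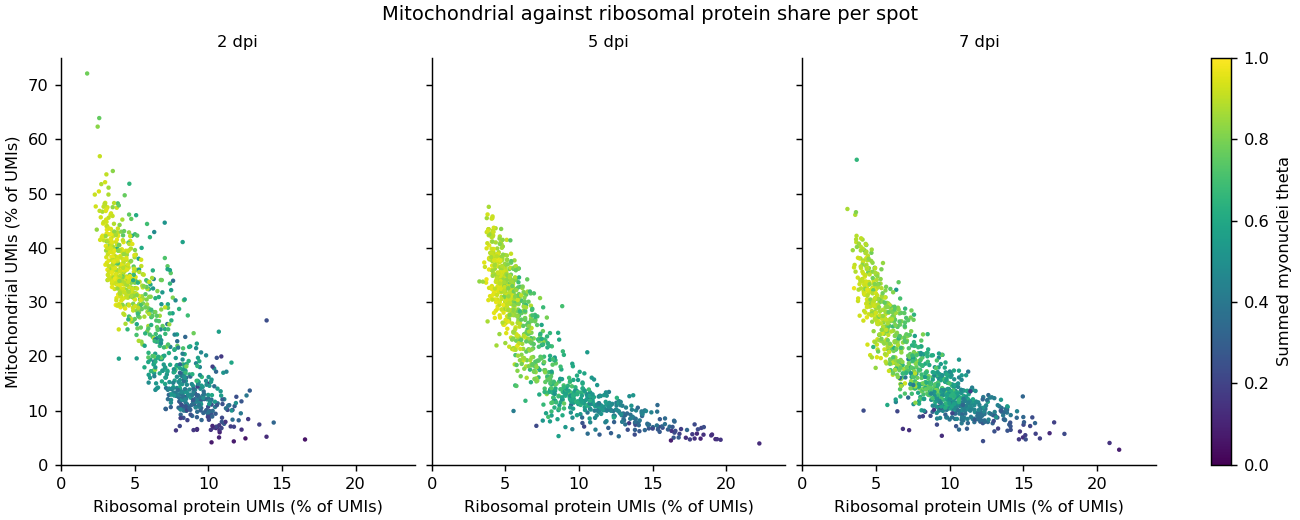
Mitochondrial share (y axis) against ribosomal protein share (x axis), both in percent of the UMIs of a spot, 1 point per spot, coloured by the summed myonuclei theta. The spots form a falling band in each section (rho -0.88, -0.92 and -0.90), with high theta at its upper left and low theta at its lower right.

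Depth had a weaker relation with the share than cell content did. The rank correlation with the UMI count was 0.34, 0.03 and -0.04 (2, 5 and 7 dpi in turn), and given the summed myonuclei theta it was 0.07, 0.13 and -0.01. The UMI count contains the mitochondrial UMIs. With the other UMIs alone, rho was 0.11, -0.20 and -0.23, and with the number of genes -0.14, -0.41 and -0.41. Spots with a high mitochondrial share thus tended to list fewer genes, in plain rho most clearly at 5 and 7 dpi. At a given UMI count the rho with the number of genes was -0.850, -0.809 and -0.788 at 2, 5 and 7 dpi. That with the other UMIs was then -0.922, -0.848 and -0.798. At a fixed UMI count more mitochondrial UMIs leave fewer of all others, so the measure itself favors negative values. These values therefore cannot decide whether the sections differ. At a given summed myonuclei theta the rho with the number of genes was weak, at -0.075, -0.015 and -0.154. The share of hemoglobin UMIs, which come from red blood cells, had a rho of -0.06, 0.18 and 0.30.

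The spots at both ends of the range differed in their leading cell types. The lowest spot at 2 dpi (4.13%, 16402 UMIs) was assigned mainly to patrolling monocytes, with a theta of 0.530 against 0.0688 for both myonuclei. The lowest at 5 dpi (3.92%, 14179 UMIs) and at 7 dpi (2.77%, 23973 UMIs) were led by dendritic cells, with thetas of 0.373 and 0.391. Ribosomal protein genes gave 22.2% and 21.5% of the UMIs in those 5 and 7 dpi spots. Dendritic cells did not lead every low spot. The next lowest spots at 5 dpi were led by Cx3cr1-hi M2 macrophages (0.260) and fusing myocytes (0.381). At 7 dpi the next lowest were led by dendritic cells (0.273) and pro-remodeling FAPs (0.214).

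The highest spot at 2 dpi (72.2%, with 3499 mitochondrial of 4849 UMIs and 715 genes) had thetas of 0.446 for type IIx and 0.332 for type IIb myonuclei. The highest at 5 dpi (47.6%, 3406 UMIs) had 0.444 and 0.426. The highest at 7 dpi (56.2%, 4713 UMIs) had 0.107 for type IIx, 0.546 for type IIb and a hemoglobin share of 3.76%. Myonuclei led all 3 of them, and all 3 held fewer UMIs than the median spot of their section. By the total UMI count, low depth was not general among high spots at 2 dpi. The 11 spots there with at least 50% held a median of 7979 UMIs. The median was 5786 over the section and 7586.5 in its myofiber-rich spots. These totals include the mitochondrial UMIs by which the 11 spots were picked, and their other UMIs were not compared. At least 50% mitochondrial UMIs were found in 11 spots at 2 dpi, 1 at 7 dpi and 0 of 933 at 5 dpi. For 5 dpi the upper bound of the exact Clopper-Pearson 95% interval was 0.395% of spots. That bound covers the counting of spots in this section only and treats them as independent, so it does not describe other animals.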

How the data were processed

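The authors aligned the Visium reads with Space Ranger 1.0 (mm10) and deposited, per spot, raw UMI counts, gene counts, mitochondrial, ribosomal protein and hemoglobin genes as a percent of UMIs (Seurat 3.2.1 is among the tools in their processing notes), and theta fractions for 27 cell types from BayesPrism. The methods describe fewer types than the table holds. No gene-level table was used here. Percent multiplied by the count gave whole UMIs, within 1e-06, in 100% of spots. All deposited spots entered. Columns without a sample numbered 0. Sections share 505 array barcodes, which mark positions and not shared cells.

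Spearman's rho, partial rank correlations on rank residuals, medians and exact 95% intervals were computed with Python 3.11.15, pandas 2.3.3, numpy 2.4.6 and scipy 1.17.1, and the code was tested on simulated data. Bins needed at least 10 spots. With 1 section per time point, no p-value was formed. The members, bins, types and lists were chosen with earlier results of these data known. Types chosen to be given with values in the main results were both myonuclei, the 4 myogenic stages and types with a rho of at least 0.3 in size in a section. These made 24 of 27, over 81 correlations. The 3 other types, artery, capillary and smooth muscle, are given with values of their own only in the closing sections. Alternatives were other summaries (mean, summed UMIs), depth limits, bin edges, type IIb alone, other denominators, Pearson's r and partial correlations. Chosen after seeing the data were the limit on the type IIx part, the 0.9 bin, omission of spots of at least 50%, correlation with the type IIx part given the sum or in spots of at least 0.9, ribosomal protein share with both corrections, and each theta given the sum and the UMI count.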

Additional observations from a re-analysis of the deposited data

Results flagged for a closer look

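A total of 5 measures had a rank correlation with the mitochondrial share of -0.1 or lower in one section and 0.1 or higher in another. Each section stands alone, so the difference was not tested. The theta of quiescent MuSCs had a rho of -0.507, 0.0530 and 0.103 for 2, 5 and 7 dpi, respectively, and that of committed myoblasts -0.625, -0.0541 and 0.138. Arterial endothelial cells had -0.280, 0.0609 and 0.116, and capillary endothelial cells -0.235, 0.259 and 0.211. The number of non-mitochondrial UMIs had 0.113, -0.203 and -0.228. Given the summed myonuclei theta, quiescent MuSCs (0.13, 0.25, 0.23), arterial (0.16, 0.28, 0.26) and capillary cells (0.19, 0.37, 0.34) were positive in all 3 sections, while committed myoblasts had -0.01, 0.22 and 0.10.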

How the results depend on the processing

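The positive rho of the mitochondrial share with the summed myonuclei theta and with the type IIx part, and its negative rho with the ribosomal protein share, kept their sign in every section under each alternative run for them. Spots could not be thinned to equal depth. Equal weight of the bins moved the ratio of medians to 0.976 (7 over 5 dpi) and 0.790 (7 over 2). The lowest bin moved to 0.694 (7 over 2) with summed UMIs. With type IIb theta alone as myofiber content, the bin from 0.25 to 0.5 gave 0.951 (5 over 2), the next bin 1.095 (5 over 2) and 0.700 (7 over 5), both changed in direction, and rho was 0.659, 0.451 and 0.546. At 5000 to 10000 UMIs the bin from 0.5 to 0.75 gave 0.575 (7 over 2), and the lowest bin held too few spots at 5 and 7 dpi to form its 3 ratios. With a type IIx part under 0.05, myofiber-rich spots gave 0.596 (7 over 2). The 7 to 2 dpi ratio of mitochondrial UMIs was 1.50 by means and 1.36 in myofiber-rich spots.

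The rank correlation with the ribosomal protein share was -0.724 and -0.800 (2 and 5 dpi) of non-mitochondrial UMIs, -0.594, -0.718 and -0.594 given the summed myonuclei theta, and -0.146, -0.210 and -0.303 with both. The rank correlation with depth was 0.113, -0.203 and -0.228 for non-mitochondrial UMIs, -0.139, -0.408 and -0.408 for genes, a changed direction for genes at 2 and 5 dpi and for non-mitochondrial UMIs at 5 dpi, and 0.0728 and 0.135 (2 and 5 dpi) given the summed theta. The rank correlation with the type IIx part was 0.370 (5 dpi) and 0.536 (7 dpi) at 5000 to 10000 UMIs, and 0.734 (5 dpi) given the summed theta. The cause of these shifts was not tested.

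Given the summed myonuclei theta, 35 of 81 theta correlations differed in sign from the plain rho, 6 of them with a plain rho under 0.1 in size and 29 with a larger one. Among the 29, the values at 2 dpi were type IIb myonuclei -0.434, quiescent MuSCs 0.133, fusing myocytes 0.303, inflammatory monocytes 0.00792, dendritic cells 0.0388, B cells 0.0836, T cells 0.00274, neutrophils 0.0236, pro-remodeling FAPs 0.0262, artery 0.160, capillary 0.187, stem endothelium 0.101, vein 0.192, neural cells 0.0391, smooth muscle 0.214 and tenocytes 0.189. At 5 dpi they were type IIb myonuclei -0.576, activated MuSCs 0.0803, patrolling monocytes 0.0107, T cells 0.0183, neutrophils 0.0979, pro-remodeling FAPs 0.0847, stem FAPs 0.0684, vein 0.247 and tenocytes 0.0715. At 7 dpi they were type IIb myonuclei -0.566, neutrophils 0.0942, pro-remodeling FAPs 0.0468 and tenocytes 0.0819.

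Given the UMI count as well, 45 of 81 did, 6 of them with a plain rho under 0.1 in size and 39 with a larger one. Among the 39, the values at 2 dpi were type IIb myonuclei -0.431, quiescent MuSCs 0.182, committed myoblasts 0.0384, fusing myocytes 0.296, inflammatory monocytes 0.0325, Cx3cr1-hi M2 macrophages 0.0205, dendritic cells 0.0786, B cells 0.158, T cells 0.0524, NK cells 0.0308, neutrophils 0.0892, pro-remodeling FAPs 0.0220, artery 0.205, capillary 0.208, stem endothelium 0.121, vein 0.242, neural cells 0.0943, smooth muscle 0.234 and tenocytes 0.241. At 5 dpi they were type IIb myonuclei -0.581, activated MuSCs 0.193, patrolling monocytes 0.0750, inflammatory monocytes 0.0750, M1 macrophages 0.0859, Cx3cr1-lo M2 macrophages 0.0113, dendritic cells 0.0422, B cells 0.0690, T cells 0.123, NK cells 0.0461, neutrophils 0.235, adipogenic FAPs 0.0393, pro-remodeling FAPs 0.0522, stem FAPs 0.142, vein 0.311 and tenocytes 0.146. At 7 dpi they were type IIb myonuclei -0.567, neutrophils 0.115, pro-remodeling FAPs 0.0543 and tenocytes 0.0858.

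In spots with 5000 to 10000 UMIs, 7 of 81 changed sign, 4 of them with a plain rho under 0.1 in size and 3 with a larger one, namely committed myoblasts (-0.110), artery (-0.0133) and capillary (-0.0877) at 7 dpi. With Pearson's r 6 of 81 did, 5 with a plain rho under 0.1 in size and 1 with a larger one, artery at 7 dpi (-0.00621). Given the UMI count alone, 0 of 81 did.

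No paired analysis was possible because each time point has 1 section and no test was made.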
